A study of Homo sapiens with 12 samples.

Results

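The mRNAs described here encode 8 members of the HSP90, HSP70 and HSP60 chaperone families of the cytosol and the mitochondrion. The cytosolic ones are HSP90AA1 (ENSG00000080824.14), HSP90AB1 (ENSG00000096384.15), HSPA8 (ENSG00000109971.9), HSPA1A (ENSG00000204389.8), HSPA4 (ENSG00000170606.9) and HSPH1 (ENSG00000120694.15). The mitochondrial ones are HSPA9 (ENSG00000113013.8) and HSPD1 (ENSG00000144381.12). They were taken by identifier, 8 of 57820 genes in the deposited tables, by a rule that uses no measured value. Members and tests were, however, chosen with earlier results of these data known. The tables hold no gene names, so the names are those given with the list of identifiers.

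The series holds 12 libraries, 6 groups of 2, from HEK293, an established line of human embryonic kidney origin. Flp-In T-REx derivatives carried FLAG/HA-tagged RPL12, also called uL11, a protein of the large ribosomal subunit. The forms were S38A (alanine in place of a serine), S38D (aspartate in its place) and WT, and each was overexpressed, with no deletion of the cells' own RPL12 described. Polyadenylated RNA was sequenced from anti-FLAG immunoprecipitates (IP) of 80S fractions of sucrose gradients and from aliquots of the same fractions (input). The 6 groups were therefore S38A IP and S38A input, S38D IP and S38D input, and WT IP and WT input. All fractions received cycloheximide at 50 µg/ml, and all lines had been selected with hygromycin to monoclonal colonies. The labels leave unsaid whether each line is 1 clone. An IP from untagged cells is not among the libraries, so RNA held by the beads and RNA held through RPL12 cannot be told apart. Whether the 2 libraries of a group stem from different cultures is not stated, and p-values therefore speak only of differences between these libraries, whose spread can be technical. Labelled cell type and tagged gene were not checked, because the identifiers of those genes could not be matched to names.

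Chaperones of these families bind unfolded or partly folded proteins and use ATP to release them. HSP70 proteins act early, many of them on chains still emerging from the ribosome, and HSP90 proteins act later on clients such as kinases and steroid receptors. HSP60 forms a closed chamber in which imported proteins fold inside the mitochondrion. Genes of these families include classical targets of heat shock factors, which bind inverted repeats of the letters GAA, the heat shock element.

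Heat shock element letters are shown because they are a feature of these genes that the choice by identifier did not use. They were searched as GAANNTTC or TTCNNGAA for 2 units and as GAANNTTCNNGAA or TTCNNGAANNTTC for 3 units. Each pair of motifs covers both strands, and every 3-unit match also holds overlapping 2-unit matches. The search covered RefSeq windows of build GRCh38.p14 that run from 250 bases before to 50 bases after an annotated start. All 8 genes had a window, 12 in all. The sequences below are written 5′ to 3′ on the gene's strand, with the matched run in capitals and the distance from its first base to the start in parentheses.
HSP90AA1, chr14:102087114-102087138, minus strand (88 bases): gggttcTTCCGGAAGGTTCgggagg
HSP90AA1, chr14:102087099-102087118, minus strand (68 bases): ggaggcTTCTGGAAaaagcg
HSP90AB1, chr6:44247772-44247796, plus strand (165 bases): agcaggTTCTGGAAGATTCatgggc
HSP90AB1, chr6:44247825-44247849, plus strand (112 bases): agattgTTCTGGAAGCTTCtggatt
HSPA8, chr11:123062173-123062197, minus strand (55 bases): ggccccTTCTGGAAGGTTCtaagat
HSPA8, chr11:123062348-123062372, minus strand (230 bases): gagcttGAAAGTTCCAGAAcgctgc
HSPD1, chr2:197500062-197500090, minus strand (245 bases): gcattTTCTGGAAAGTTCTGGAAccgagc
HSPA1A, chr6:31815431-31815450, plus strand (106 bases): accctgGAATATTCccgacc

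A 3-unit run was present for HSP90AA1, HSP90AB1, HSPA8 and HSPD1, 4 of the 8 genes, and the run of HSPD1 had 4 units. Among all windows 0.49% of 35116 held 3 units, and among all genes 0.608% of 27305 did. At least 2 units were found for 6 of the 8 genes, against 16.2% of all genes. HSPA1A had 2 units by these exact letters, and the match of HSPA9, which began 4 bases before the start, is not printed because it spans the start. The windows of HSPA4 and HSPH1 held no match, which says only that these letters are not in these windows. These are matches of letters in DNA and no binding was measured.

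Gene counts per library were 6150315 and 7430881 in S38A IP, 4390785 and 3695441 in S38D IP, and 3186164 and 5048911 in WT IP, against 7434431 to 8723130 in the 6 inputs. Spike-in RNA took 1.44% to 5.43% of counts in IP libraries and 0.116% to 0.484% in inputs. The deepest IP libraries were thus both of S38A, and the first WT IP library was the shallowest and had the highest spike-in share. Levels below are CPM (reads scaled to a common library total) with TMM scaling. They are shares of a library, so fewer cells and less RNA per cell cannot be told apart, and they are not compared between genes because transcript lengths were not used. Of the 8 mRNAs, 7 had at least 370 reads in every library. HSPA1A had 0 to 6 reads and is described on its own.

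The first question was whether ribosomes recovered through tagged RPL12 carried more or less of these mRNAs than the 80S fraction they came from. All 7 well-measured mRNAs were higher in IP than in input, by 1.40-fold to 2.17-fold over the 3 lines. The HSP90 pair and HSPA8 changed most and HSPH1 and HSPD1 least. Of all 16920 genes tested, 15.9% were called higher in IP (edgeR quasi-likelihood test, Benjamini-Hochberg adjusted p under 0.05). The share was 44.2% among the 2735 genes with a mean CPM at least that of HSPH1, the least covered of the 7. The members' median log2 fold change was 0.56, beside -0.04 over all genes and 0.24 over those 2735 genes.

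**Figure D1:**
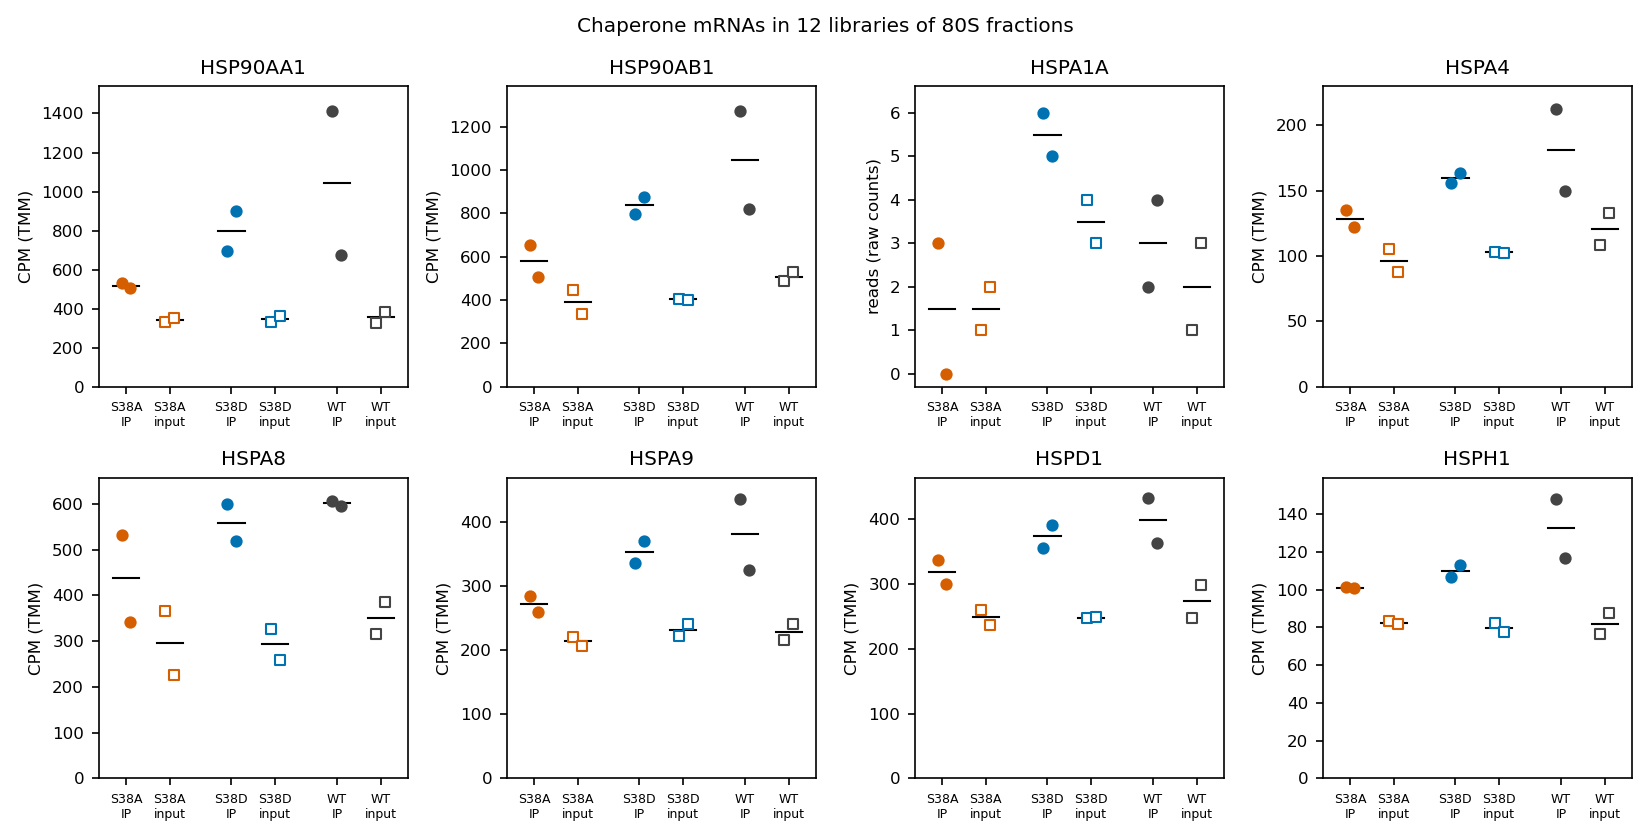
Level of each chaperone mRNA in the 12 libraries (vertical axis: CPM with TMM scaling, or raw reads for HSPA1A), with S38A, S38D and WT from left to right and IP (filled circles) left of input (open squares). Points are single libraries and black lines are means of 2; the first WT IP library is the highest IP point for HSP90AA1 at 1413 CPM and for 6 other mRNAs.

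HSP90AA1 encodes the stress-inducible cytosolic HSP90. In IP its level was 531 and 504.5 CPM in S38A, 696 and 903 in S38D, and 1413 and 676 in WT. In input it was 333.5 and 354 CPM in S38A, 331 and 363 in S38D, and 327 and 384 in WT. Every IP library lay above every input library, a separation seen for 6.15% of all genes. The mean was 787 ± 338 CPM in IP and 349 ± 22.4 CPM in input (SD, n = 6 each). The log2 fold change over the 3 lines was 1.12 (SE 0.16, 2.17-fold, edgeR adjusted p = 0.000432), and 1.38% of genes had a larger one. IP over input within a fraction ranged from 1.42 in the second S38A fraction to 4.32 in the first WT fraction. In raw reads HSP90AA1 varied less than depth did, with 2804 to 3906 reads over the 12 libraries.

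HSP90AB1 encodes the constitutively expressed cytosolic HSP90. In IP its level was 655 and 508 CPM in S38A, 799 and 876 in S38D, and 1275 and 819 in WT. In input it was 449 and 335 CPM in S38A, 407 and 401 in S38D, and 486.5 and 529 in WT. The 2 sets overlapped, because the second S38A IP library lay below the second WT input. Within each fraction IP was above input, from 1.46 to 2.62 times. Over the 3 lines HSP90AB1 rose by 0.89 on the log2 scale (SE 0.13, 1.85-fold, edgeR adjusted p = 0.000522). The mean was 822 ± 259 CPM in IP and 435 ± 68.6 CPM in input (SD, n = 6 each).

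HSPA8 encodes the constitutive cytosolic HSP70, also called HSC70, which binds many nascent chains. In IP its level was 532.5 and 341.5 CPM in S38A, 599 and 519 in S38D, and 607 and 596 in WT. In input it was 365 and 225 CPM in S38A, 326 and 260 in S38D, and 316 and 385 in WT. The second S38A IP library lay within the input range, but its own input was the lowest of all. In S38A and S38D the fraction with the lower input also had the lower IP, and in WT it had the higher. The 6 within-fraction ratios were 1.46 to 2.00. HSPA8 rose by 0.76 on the log2 scale over the 3 lines (SE 0.15, 1.69-fold, edgeR adjusted p = 0.00218). With the fraction as a replicate block the estimate was 0.77 and its SE 0.06.

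HSPA1A encodes the strongly heat-inducible cytosolic HSP70. Its reads in IP were 3 and 0 in S38A, 6 and 5 in S38D, and 2 and 4 in WT, 20 in all. In input they were 1 and 2 in S38A, 4 and 3 in S38D, and 1 and 3 in WT, 14 in all. It passed the filter on low counts only through S38D IP, and the count of 0 in S38A IP allows up to 3 reads. The log2 fold change of 1.35 (SE 0.61) did not pass (edgeR adjusted p = 0.108). HSPA1B is a near-identical neighbour of this gene, and the sources used here do not give how reads that match both were counted. The low count can therefore not be read as low expression of the inducible HSP70. Other members, HSP90AA1, HSPA8 and HSPD1 among them, have processed copies elsewhere in the genome, so their values carry the same uncertainty. Copies of the remaining members were not looked up.

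HSPA4 and HSPH1 encode HSP110-type proteins, large relatives of HSP70 that act as its nucleotide exchange factors. HSPA4 in IP stood at 135 and 122 CPM in S38A, 156 and 163.5 in S38D, and 213 and 150 in WT. In input it stood at 105 and 87.5 CPM in S38A, 103.2 and 102.7 in S38D, and 108 and 133 in WT. The second S38A IP library fell within the range of the inputs, and IP was above input in 6 of 6 fractions, by 1.13 to 1.96 times. Over the 3 lines its log2 fold change was 0.54 (SE 0.11, 1.46-fold, edgeR adjusted p = 0.00236).

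HSPH1 in IP stood at 101.4 and 100.7 CPM in S38A, 107 and 113 in S38D, and 148 and 117 in WT. In input it stood at 83.2 and 81.7 CPM in S38A, 82.4 and 77.3 in S38D, and 76.3 and 87.4 in WT. The inputs spanned a narrow range and all 6 IP libraries lay above it. In IP WT was highest and S38A lowest, and the lines were apart by as little as 117 in WT against 113 in S38D. How many genes share this order was not counted, and no difference of HSPH1 between lines passed. The log2 fold change over the 3 lines was 0.48 (SE 0.09, 1.40-fold, edgeR adjusted p = 0.00172).

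Of the mitochondrial chaperones, HSPA9 (mortalin) is the HSP70 of the matrix, where it helps to pull in and fold imported proteins. In IP its level was 285 and 259 CPM in S38A, 335 and 370 in S38D, and 435 and 325 in WT. In input it was 221 and 206 CPM in S38A, 222 and 240.2 in S38D, and 216 and 239.8 in WT. No IP library reached down to the inputs, and both S38A IP libraries were below the other 4. HSPA9 thus rose by 0.56 on the log2 scale (SE 0.10, 1.48-fold, edgeR adjusted p = 0.00125).

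HSPD1 encodes HSP60, the chaperonin of the matrix. In IP its level was 337.5 and 299.9 CPM in S38A, 356 and 391 in S38D, and 432.5 and 364 in WT. In input it was 260.0 and 237 CPM in S38A, 247 and 249 in S38D, and 248 and 298 in WT. The lowest IP library, the second of S38A, was just above the highest input, the second of WT. Its log2 fold change was 0.50 (SE 0.10, 1.41-fold, edgeR adjusted p = 0.00207).

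With the replicate block 22.5% of all genes were called higher, again with all 7 among them. IP was above input in 6 of 6 fractions for each of these 7 mRNAs, as it was for 20.3% of all genes and 52.5% of the 2735 well-covered ones. IP and input did not overlap for HSP90AA1, HSPA9, HSPD1 and HSPH1, and the same held for 19.3% of the well-covered genes. The calls over the 3 lines held for all 7 in each of 19 alternatives, with log2 fold changes from 0.26 to 1.26 and adjusted p of at most 0.0243. The sizes depended on scaling. With total gene counts the median of all genes moved to -0.25, and the members' changes were 0.26 to 0.89. Of all genes 7.67% were then called higher, and 23.7% of the well-covered ones.

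**Figure D2:**
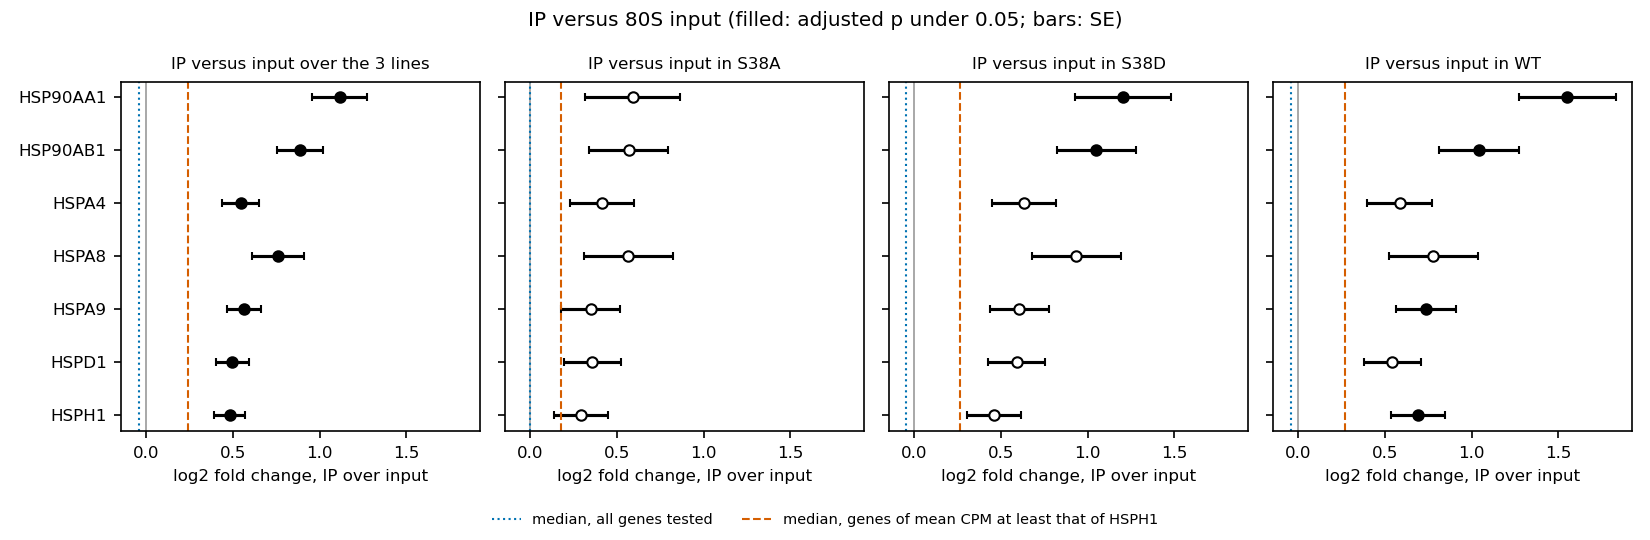
Log2 fold change of IP over input (horizontal axis) for 7 chaperone mRNAs over the 3 lines and within S38A, S38D and WT, with SE as bars, filled where the edgeR adjusted p was under 0.05. Vertical lines mark the medians of all 16920 genes and of the 2735 genes with a mean CPM at least that of HSPH1; all points lie right of both medians.

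Each line was then taken alone, with 2 IP and 2 input libraries in a fit that shares its spread over all 12. In S38A, IP over input was smallest, from a log2 fold change of 0.29 for HSPH1 to 0.59 for HSP90AA1 (edgeR adjusted p = 0.329). None of the 7 was called in S38A, where edgeR called 0% of all genes higher, and 4 of the 7 had an unadjusted p under 0.05, as did 2575 of 16920 genes. DESeq2 called 236 genes higher and 227 lower in S38A, with none of the 7 among them. With the fraction as a replicate block 5.92% of genes were called higher in S38A, among them HSP90AB1 (0.57, edgeR adjusted p = 0.037) and HSPA8 (0.57, adjusted p = 0.0133).

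In S38D the HSP90 mRNAs rose. HSP90AA1 changed by 1.20 (SE 0.28, edgeR adjusted p = 0.0322) and HSP90AB1 by 1.05 (SE 0.23, adjusted p = 0.0296), 2 of 7 called where 3.13% of all genes and 11.6% of the well-covered ones were called higher. HSPA8 had 0.93 (adjusted p = 0.0553), and HSPD1, HSPA9, HSPA4 and HSPH1 had 0.46 to 0.63 and did not pass. With the replicate block all 7 passed, where 10.7% of genes did. Omitting any 1 of the 4 S38D libraries left 0 of the 7 called, where 0 to 4 of all genes were called higher. Omitting the first or the second WT input left 1, HSP90AB1, with 262 and 255 genes called higher. Omitting the first or the second WT IP library gave 7, with 1082 and 1154 genes called higher, against 530 with all libraries. Omitting any 1 of the S38A libraries except the first IP added HSPA8 (adjusted p at most 0.0478).

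In WT 4 of the 7 mRNAs rose, where 5.77% of all genes and 19% of the well-covered ones were called higher. HSP90AA1 had a log2 fold change of 1.55 (SE 0.28, 2.93-fold, edgeR adjusted p = 0.00876) and HSP90AB1 of 1.04 (SE 0.23, adjusted p = 0.0165). HSPA9 had 0.74 (adjusted p = 0.0202) and HSPH1 0.69 (adjusted p = 0.0181). HSPA8 at 0.78, HSPA4 at 0.59 and HSPD1 at 0.54 did not pass (adjusted p = 0.0526 to 0.0679), and all 7 passed with the replicate block, where 14% of genes did. With total gene counts HSPH1 did not pass (0.42, adjusted p = 0.0642). Omitting the first WT input left 0 of the 7 called among 61 genes called higher of 17516, and omitting the second left 0 of 17525. Omitting either S38A input added HSPA8 (adjusted p at most 0.0477). Omitting the first WT IP library left HSP90AA1 alone of the 7, at 0.95 (adjusted p = 0.0355), with 231 genes called higher. Omitting the second gave 6 of the 7, with HSP90AA1 at 1.99 (adjusted p = 6.3e-05) and 1634 genes called higher.

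Whether IP over input differed between the lines was tested as the difference of these changes. The 3 contrasts share libraries, so their values are not independent of each other. For S38A versus WT all 7 differences were negative, with a median of -0.39 beside 0.05 over all genes and -0.05 over the well-covered ones. HSP90AA1 had the largest difference, -0.96 (SE 0.39, unadjusted p = 0.0273, edgeR adjusted p = 1), then HSP90AB1 with -0.47 (SE 0.32). None was called, as for 0% of all genes, and 1 of 7 had an unadjusted p under 0.05, while 393 of 16920 genes did. DESeq2 called none of all genes either.

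For HSP90AA1 the size of this difference depended on the WT libraries. Without the first WT IP library it was -0.39 (edgeR adjusted p = 1), and without the second it was -1.40 and passed (adjusted p = 0.0172), among 288 genes called lower of 17543. A setting chosen after seeing the data had the replicate block and left out the whole first WT fraction. It gave -0.23, while HSPD1 and HSPA4 turned positive at 0.07 and 0.24. HSPA4 was also positive without the first WT IP library (0.05), and HSPA8 without the first S38A input (0.18) or the second S38A IP library (0.08); none of these passed.

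For S38D versus WT the differences lay between -0.35 for HSP90AA1 and 0.15 for HSPA8, with a median of 0.01 (none called, edgeR adjusted p = 1 for each). None of these 7 had an unadjusted p under 0.05, while 134 of all genes did, and 0% of all genes were called. For S38D versus S38A all 7 were positive, from 0.17 for HSPH1 to 0.61 for HSP90AA1 (SE 0.39, edgeR adjusted p = 1), with a median of 0.26 beside -0.02 over all genes and 0.10 over the well-covered ones. None was called there, as for 0% of genes. None of the 7 had an unadjusted p under 0.05, while 109 of all genes did, and DESeq2 called none of all genes. Where no gene differs, a share of about 0.05 would fall under that p, and both 134 and 109 were far fewer. The fit without the replicate block was therefore cautious here, and its lack of calls does not show that the lines were alike. Without the first S38A input the difference of HSPA8 was -0.025, and without the first S38A IP library it was 0.73, neither of which passed. With the replicate block and all libraries HSP90AA1 had 0.60 (SE 0.32, edgeR unadjusted p = 0.0889). HSP90AB1 had 0.48 (SE 0.22, edgeR unadjusted p = 0.0504) and HSPA8 0.37 (SE 0.15, edgeR unadjusted p = 0.0378). HSPA8 alone of the 7 was under 0.05, as were 578 of all genes, and none of all genes was called. For S38D versus WT 460 of all genes were under 0.05 with the block, none of the 7 among them. A setting chosen after seeing the data also left out the first WT fraction, and HSP90AA1 again had 0.60 (SE 0.10). There HSP90AA1, HSP90AB1 (0.48) and HSPA8 (0.36) passed, though the omitted fraction was of neither S38D nor S38A. That fit called 2.1% of 17420 genes higher in S38D. In it only the second WT fraction remained, and the S38D versus WT difference of HSP90AA1 turned positive, at 0.38.

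Levels in IP tended to fall as the depth of the library rose. In depth the WT libraries lay on either side of the S38D ones, so this was an order of libraries, not of these lines. For HSP90AA1, HSPA4 and HSPA9 the 6 IP libraries ranked in CPM exactly opposite to their rank in gene counts, which 1.71% of all genes and 5.78% of the well-covered ones also did. For the other 4 the shallowest library, WT 1, was the highest and the deepest, S38A 2, the lowest. The spike-in share of the IP libraries ran exactly opposite to their depth, from 5.43% in WT 1 to 1.44% in S38A 2. Greater depth, a lower spike-in share and S38A coincide in the IP libraries, so their parts in these differences cannot be told apart.

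**Figure D3:**
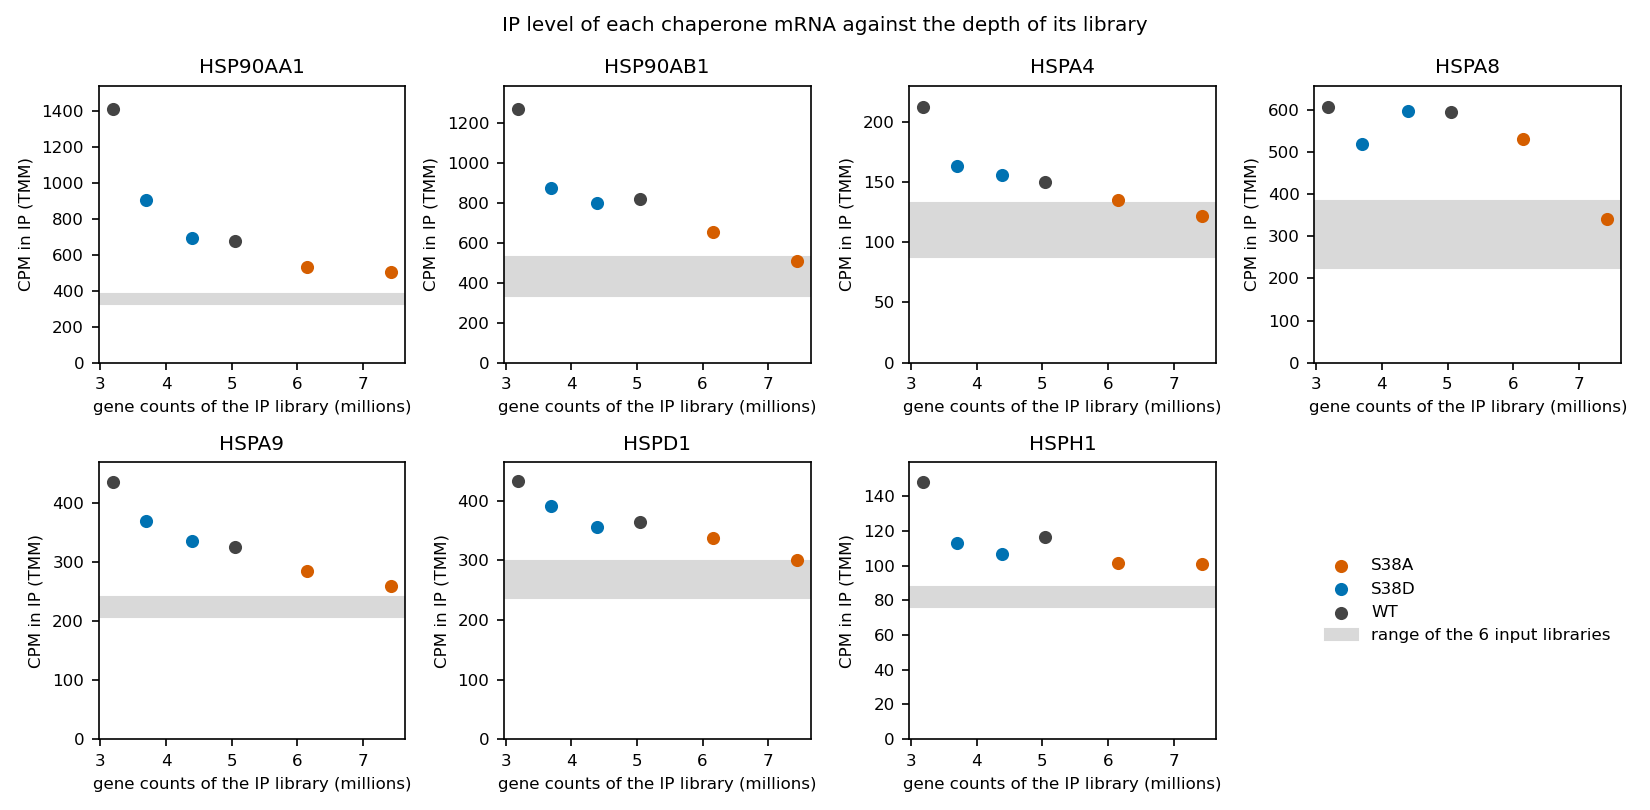
Level of each chaperone mRNA in the 6 IP libraries (vertical axis, CPM with TMM scaling) against the gene counts of the library (horizontal axis), coloured by line, with the range of the 6 inputs in grey. HSP90AA1 stood at 1413 CPM in the shallowest library and at 504.5 in the deepest.

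In the inputs the 7 mRNAs did not pass between any lines (edgeR, 6 input libraries, 0 of 7 in each comparison). Of 16728 genes, 0% were called higher for S38A versus WT and 0.00598% for each of S38D versus WT and S38D versus S38A. None of the 7 had an unadjusted p under 0.05, which 2566 genes had for S38A versus WT, 555 for S38D versus WT and 630 for S38D versus S38A. DESeq2 called 288 genes higher and 131 lower for S38A versus WT and 10 or fewer in the other contrasts, none of the 7 among them. HSP90AA1 differed least, by -0.03 for S38A versus WT and -0.01 for S38D versus WT (SE 0.14 each). HSP90AB1 had -0.35 for S38A versus WT (SE 0.17, adjusted p = 0.351) and -0.31 for S38D versus WT (SE 0.17, adjusted p = 1). With scaling on the spike-ins HSP90AB1 had -0.80 and -1.12, while the medians of all genes moved to -0.44 and -0.83, and still none passed.

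Ratios of reads between related mRNAs within a library do not depend on library scaling. They were compared between IP and input over the 6 fractions by two-sided exact permutation, where 64 assignments allow no p below 0.03125. HSP90AA1 over HSP90AB1 was higher in IP in 5 of 6 fractions, by 0.20 on the log2 scale (SD 0.27, 1.15-fold, exact p = 0.0625, adjusted over 4 ratios 0.125). The ratio in IP was 0.811 and 0.992 in S38A, 0.871 and 1.03 in S38D, and 1.11 and 0.825 in WT. In input it was 0.743 and 1.06 in S38A, 0.8125 and 0.907 in S38D, and 0.673 and 0.726 in WT. The first WT fraction had the largest step, and without it the mean difference was 0.10.

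The mitochondrial HSPA9 over the cytosolic HSPA8 was lower in IP in 5 of 6 fractions, with a difference of -0.21 (SD 0.15, exact p = 0.0625, adjusted 0.125). HSPH1 over HSPA4 differed by -0.06 (SD 0.16, exact p = 0.406, adjusted 0.5), and HSPA1A over HSPA8 by 0.44 (SD 1.54, exact p = 0.5, adjusted 0.5). None of the 4 ratios passed. A ratio that alone reached the smallest possible p of 0.03125 would still not pass after adjustment over the 4. This outcome therefore does not show that the ratios were alike in IP and input. Without the second S38A fraction HSPA1A over HSPA8 differed by 1.05, and without the first WT fraction by 0.22. Without the second WT fraction HSPH1 over HSPA4 differed by -0.12, and without the first S38D fraction by -0.03.

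**Figure D4:**
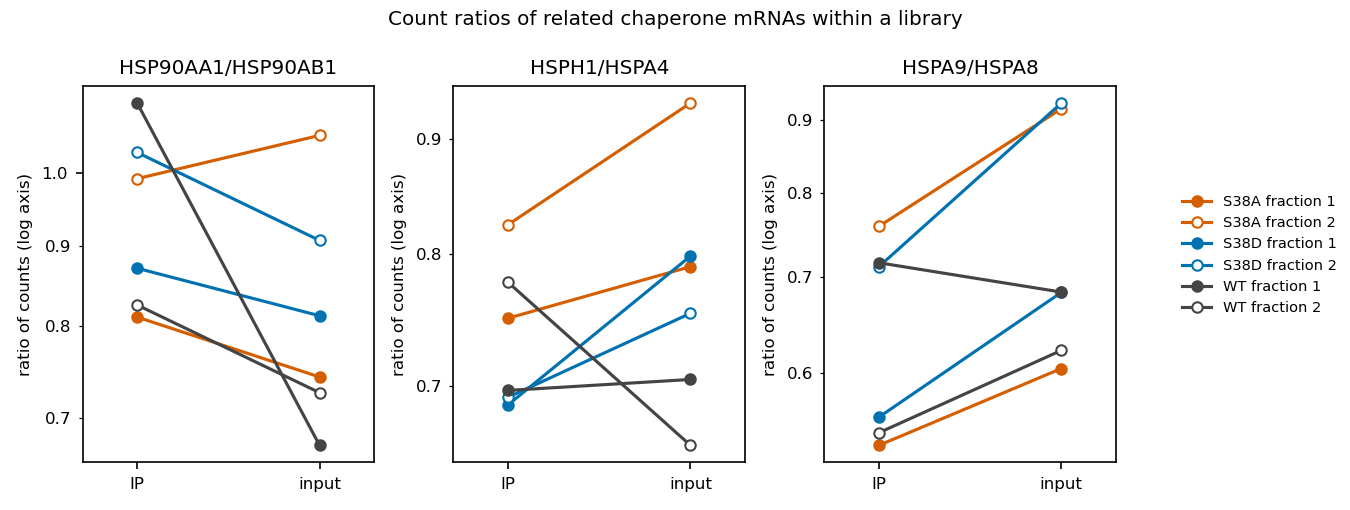
Ratio of reads between related chaperone mRNAs (vertical axis, log scale) in IP and in input, with a line joining the libraries of each of the 6 fractions. HSP90AA1 over HSP90AB1 is higher in IP in 5 of 6 fractions and HSPA9 over HSPA8 in 1 of 6.

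The 7 mRNAs varied together over the libraries. Their 21 pairwise Pearson correlations of log2 CPM were 0.80 to 0.99 over the 12 libraries (median 0.95), where every pair shares the step between IP and input and the depth of each library. Over the 6 IP libraries they were 0.54 to 0.99 (median 0.94) and over the 6 inputs -0.04 to 0.93 (median 0.61). HSP90AB1 and HSPA4 were closest at 0.99. HSP90AA1 and HSPA8 were farthest apart at 0.80 over 12 libraries, and -0.04 over the inputs. The genes most like any member among 11686 with a mean CPM of at least 10 were ENSG00000067334.9 and ENSG00000170144.14, both with HSP90AA1 (r of 0.996 each over 12 libraries). Such likeness was common, as 676 of these genes had r of at least 0.9 with HSP90AA1.

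Replicates disagreed most for HSP90AA1 and HSPA8. The SD of log2 CPM within a group was 0.34 for HSP90AA1 and 0.31 for HSPA8, larger than in 91.6% and 88.5% of the 2735 well-covered genes. HSPH1 at 0.12, HSPD1 at 0.13 and HSPA9 at 0.15 were below the median of 0.18. For HSPA8 input and IP differed between fractions in the same direction in S38A and S38D and in opposite directions in WT. For HSP90AA1 the inputs spanned 327 to 384 CPM, and its WT IP replicates were 1413 and 676.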

How the data were processed

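For each library the authors deposited 1 table of raw counts, with 57820 Ensembl identifiers and 92 ERCC spike-in sequences. The submitters' processing notes name bcl2fastq 2.16.0.10, STAR 2.4.2a, DESeq2 and build hg19. The sources used here do not give the read counter, strand handling, treatment of multiply mapped reads or annotation release. Members, lists and tests were chosen with earlier results of these data known. By rule all 8 members are named, with the 2 identifiers of most similar pattern. Of 69 other chaperone-system genes listed by symbol, 0 could be matched, since 0 of 59792 genes in the reference table carry an Ensembl identifier. These genes, the tagged RPL12 and cell type markers are not analysed here.

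All genes were fitted in R 4.3.3 with edgeR 4.0.16 on 6 group means, after filterByExpr (minimum count 10) and TMM scaling, by glmQLFit and glmQLFTest. Adjustment was by Benjamini-Hochberg over the genes of each of 10 comparisons, with calls under 0.05. The biological coefficient of variation was 17.4% over 12 libraries and 15.7% over 6 inputs. ERCC counts stayed out of library sizes. The SE is the size of the log2 fold change over the root of F. A prior count of 2 went into log2 CPM, and 0.5 was added in count ratios. Per the labels, input and IP of a number come from 1 fraction, and across genes they deviated together from the group means (r of 0.281 in WT, 0.644 in S38A, 0.543 in S38D), so the fraction was the block of the paired fit. Alternatives were RLE and total-count scaling, DESeq2 1.42.0, no filter, mean CPM of 10 or more, the replicate block, spike-in scaling of inputs and omission of each library. The fits were tested on simulated data. Promoter windows are from RefSeq, GRCh38.p14.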

Additional observations from a re-analysis of the deposited data

Results flagged for a closer look

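Among the 6 IP libraries the second S38A library stood apart for HSPA8, at 341.5 CPM, with a gap to the next library of 0.669 of the whole range. For HSPH1 the first WT IP library stood apart at 148.2 CPM, with a gap of 0.665 of the range. Among the 6 inputs the second WT library stood apart for HSPD1, at 298.4 CPM, with a gap of 0.6254 of the range. For the HSP90AA1 to HSP90AB1 ratio the first WT fraction stood apart, with a log2 step between IP and input of 0.72 and a gap of 0.66 of the range. In each case the 6 values come from 3 lines. Chance alone marks about 1 in 20 sets of 6 draws from a single population, which these values are not. How many sets were screened is not given here, so the flags cannot be set against that rate. Their cause was not tested.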

How the results depend on the processing

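Over the 3 lines 7 of the chaperone mRNAs were called in every setting, and 8 without the second S38A IP library. The added one is HSPA1A (log2 1.72, edgeR adjusted p = 0.0359), which passed the filter only through S38D IP and had 0 reads in the omitted library, so this call supports nothing. In WT the count was 4, with 3 under total counts and 7 with DESeq2 (1572 of 16920 genes higher) or the replicate block. In S38D it was 2, with 4 at a mean CPM of at least 10 and 7 with DESeq2 (1190 genes higher), the replicate block, or the block without the first WT fraction, a setting chosen after seeing the data. In S38A it was 0, with 2 under the replicate block and 7 under the block without the first WT fraction, which called 3233 of 17420 genes higher in S38A and 3337 in S38D. For S38D versus S38A in IP over input it was 0, with 3 under that last setting. Omitting 1 library gave 0 to 6 in WT, 0 to 7 in S38D, 0 to 1 for S38A versus WT, and 0 in S38A and in the other comparisons of lines. The paired fit changed no other count. The cause of these changes was not tested. No value called with all libraries and no block changed sign; HSPA8 for S38D versus S38A, called only under the block without the first WT fraction, was -0.025 without the first S38A input. The 4 count ratios stayed on the same side of the threshold in 32 alternatives. Those that omit a fraction leave 5 pairs, which allow no p below 0.0625, so they could not pass. Without pairing (no replicate block) the exact adjusted p of the ratios were 0.377 to 0.55. Replicate numbers of inputs share only a number across lines (deviations correlated at -0.066 to 0.217), and a block on them left 0 called. With 2 libraries a group, a lone library in the omission fits is assumed to vary like the others, and HSPA1A is limited by its 0 to 6 reads.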
